A study of Sus scrofa with 6 samples.

Results

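Smooth muscle cells of the vessel wall, the pericytes that lie on capillaries and the myofibroblasts of a scar are marked by contractile and signaling genes, only some of them shared. In the hearts of minipigs with chronic pressure overload, 10 such genes were followed. They are ACTA2, TAGLN, MYH11, CNN1, MYLK, LMOD1 and SMTN, which encode parts of the smooth muscle contractile apparatus, MYOCD, which encodes a transcriptional coactivator of those genes, and PDGFRB and RGS5, which are widely used pericyte markers. The genes were taken by symbol from the deposited table, and all 10 were found among its 13288 genes. The table holds RNA sequencing values of ventricular tissue from 3 sham and 3 DAC Tibetan minipigs. In the DAC group, the descending aorta was narrowed with sutures, while the sham group had the thoracotomy without the constriction. The animals were males of 1 breed, their age is not given in the sources used here, and tissue was taken at week 12 after surgery. The minipigs of the study outnumbered those sequenced, and the sources used here do not say how the latter were picked. Values are fragments per kilobase of transcript, scaled to the mapped fragments of the library (FPKM). Each column is a separate minipig, and the sham samples are numbered 1 to 3 and the DAC samples 4 to 6 as in the labels.

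In a differentiated smooth muscle cell, α-smooth muscle actin (ACTA2) and smooth muscle myosin (MYH11) form the contractile filaments. Calcium activates myosin light chain kinase (MYLK), which phosphorylates myosin and starts contraction, while calponin (CNN1), transgelin (TAGLN), leiomodin (LMOD1) and smoothelin (SMTN) bind actin. Myocardin (MYOCD) joins serum response factor on the promoters of these genes, and it is also known from cardiomyocytes. Fibroblasts that become myofibroblasts gain ACTA2 and TAGLN, so these genes alone do not tell a vessel wall from a scar. In such whole tissue, a change in the number of cells of a type and a change in the RNA of each cell cannot be told apart.

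Cardiomyocyte transcripts were abundant in the tissue. The slow myosin heavy chain MYH7 averaged 1903 ± 31.1 FPKM in sham and 1851 ± 73.5 FPKM in DAC minipigs (SD, n = 3 each). Summed over all genes, the samples held 281377 to 308771 FPKM. Read depth is not known, and Pearson's correlation of log2(FPKM + 1) between samples, across genes, was between 0.969 and 0.98. The mitochondrially encoded genes took 32.8% of that sum in DAC replicate 5, against 24.0% to 27.2% elsewhere. All 10 markers passed the filter on low values and were tested. The mean of SMTN was above that of 95.6% of the 11029 genes tested, and the mean of MYLK, the lowest of the set, was above that of 38.4%.

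Of the 10 markers, 1 was upregulated and 1 was downregulated in the DAC group at the threshold of the study, an unadjusted P under 0.05. The comparison used limma's moderated test on log2(FPKM + 1). Among all genes tested, 3.25% were upregulated and 5.27% were downregulated DEGs at that threshold, and counts of 1 gene of 10 are too small to be set apart from these shares. With values rescaled after the mitochondrially encoded genes were removed, the 358 upregulated and 581 downregulated DEGs among all genes became 502 and 408. The upregulated marker was CNN1 and the downregulated marker was SMTN. Neither passed the Benjamini-Hochberg adjustment over all genes, in which no gene reached an adjusted P under 0.05 and the lowest adjusted P from limma was 0.106. DAC means exceeded sham means for 9 of the 10 markers, against 46.6% of all genes tested. Among these 9, the log2 fold changes of MYH11, PDGFRB and RGS5 changed sign when certain single samples were left out. Over the 10 markers the median log2 fold change was 0.19, beside -0.016 over all genes, and it was 0.12 without sham replicate 1. In no marker did all DAC samples lie above all sham samples, a pattern found in 6.01% of all genes. In SMTN all DAC samples lay below all sham samples, as in 8.91% of all genes. With 3 minipigs against 3, the exact two-sided permutation test cannot give a P under 0.10.

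**Figure D1:**
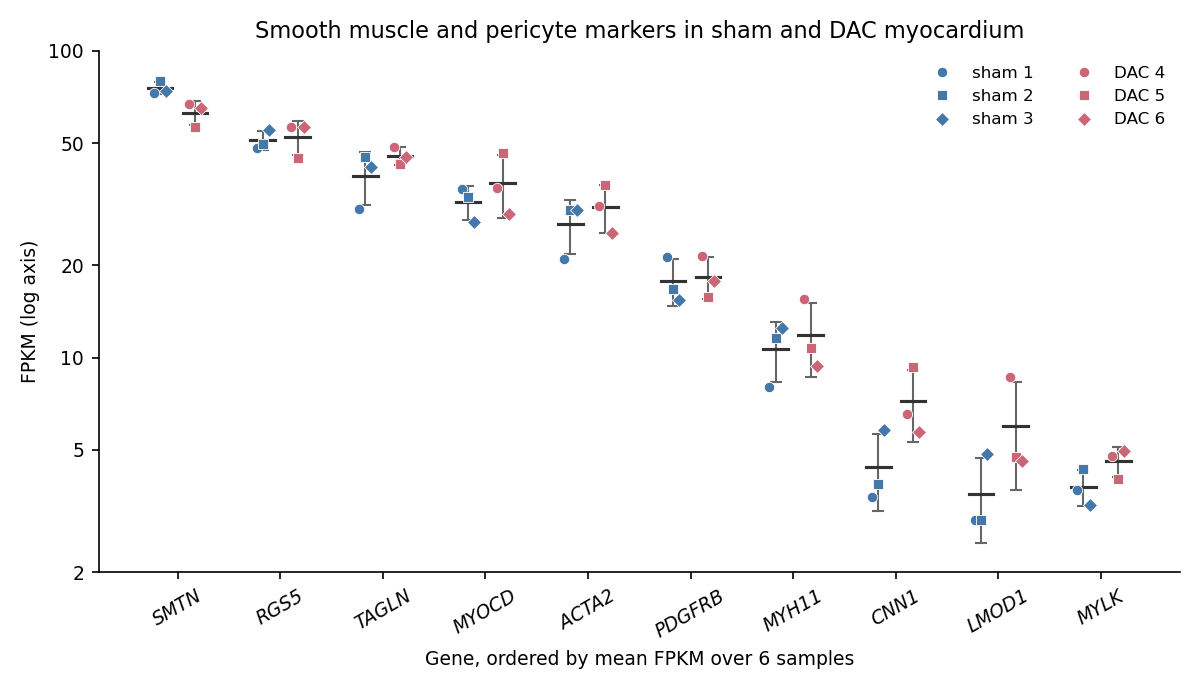
FPKM of the 10 markers in each minipig on a log axis, with sham samples in blue and DAC samples in red; horizontal lines are group means and error bars are 1 SD (n = 3 per group). The groups overlap in each gene except SMTN, where the DAC samples lie between 56.5 and 67.1 FPKM and the sham samples between 73.0 and 79.5 FPKM.

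ACTA2 (ENSSSCG00000010447, chromosome 14 from 100867733 to 100886713, minus strand, in build susScr11 like all positions given here; genes without a stated strand lie on the plus strand), the actin isoform by which myofibroblasts are commonly stained, was at 21.0, 30.3 and 30.4 FPKM in sham replicates 1, 2 and 3. In DAC replicates 4, 5 and 6 it was at 31.3, 36.5 and 25.4 FPKM. DAC replicate 6 lay below sham replicates 2 and 3, so the groups overlapped, and the lowest value of the sham group was far from its other values. Sham minipigs averaged 27.2 ± 5.39 FPKM and DAC minipigs 31.1 ± 5.52 FPKM (SD, n = 3 each). This gave a log2 fold change of 0.19 (standard error, SE, of 0.19, limma adjusted P = 0.790). Its 95% interval runs from a 0.837-fold to a 1.55-fold level on the scale of FPKM + 1. Without sham replicate 1 the log2 fold change of ACTA2 was 0.019. By quantitative PCR normalized to β-actin, the study reported a significantly higher level of this transcript in left ventricles of DAC minipigs. The sources used here do not say which animals both assays shared. STAMBPL1, which shares 4702 bases with ACTA2 on the other strand, was between 4.12 and 8.92 FPKM and was not a DEG.

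TAGLN (ENSSSCG00000015073, chromosome 9 from 44560785 to 44567385), an early marker of smooth muscle that myofibroblasts also carry, was at 30.5, 45.1 and 41.7 FPKM in the sham samples. It was at 48.6, 42.8 and 44.9 FPKM in the DAC samples. The DAC values were close together, and sham replicate 2 lay above 2 of them. The log2 fold change of TAGLN was 0.23 (95% interval -0.14 to 0.60, limma adjusted P = 0.704), and it was 0.065 without sham replicate 1.

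MYH11 (ENSSSCG00000000146, chromosome 3 from 7002733 to 7143094), the myosin heavy chain most specific to smooth muscle, was at 8.04, 11.6 and 12.5 FPKM in the sham group. In the DAC group it was at 15.5, 10.7 and 9.40 FPKM, so the highest value and the second lowest of all 6 samples were DAC samples. Its log2 fold change was 0.13 (95% interval -0.39 to 0.65, limma adjusted P = 0.885). Its direction rested on single animals: leaving out sham replicate 1 gave -0.045, and leaving out DAC replicate 4 gave -0.063. NDE1, which shares 17159 bases with MYH11 on the other strand, was between 1.59 and 2.97 FPKM and was not a DEG.

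CNN1 (ENSSSCG00000013614, chromosome 2 from 70182925 to 70197384) encodes calponin, which binds actin and slows its sliding over myosin. It was at 3.51, 3.88 and 5.79 FPKM in the sham samples and at 6.55, 9.33 and 5.73 FPKM in the DAC samples. DAC replicate 5 was the highest, and DAC replicate 6 lay just under sham replicate 3, so the groups touched. Sham minipigs averaged 4.39 ± 1.23 FPKM and DAC minipigs 7.20 ± 1.89 FPKM (SD, n = 3 each). CNN1 was an upregulated DEG with a log2 fold change of 0.60 (SE 0.21, 95% interval 0.10 to 1.11, limma adjusted P = 0.553), and its exact two-sided permutation P was 0.2. The call was lost when sham replicate 1 (log2 fold change 0.49), sham replicate 2 (0.54) or DAC replicate 5 (0.43) was left out, and when the variance was estimated from this gene alone. A gene on the opposite strand, ENSSSCG00000013613, overlaps 3660 bases of CNN1. That gene was between 8.58 and 9.95 FPKM in the sham group and between 6.51 and 7.71 FPKM in the DAC group, the other direction from CNN1. It was itself a downregulated DEG (log2 fold change -0.27).

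LMOD1 (ENSSSCG00000031201, chromosome 10 from 24164792 to 24193820, minus strand) encodes the leiomodin of smooth muscle, which nucleates actin filaments. It was at 2.95, 2.95 and 4.86 FPKM in the sham samples and at 8.65, 4.73 and 4.62 FPKM in the DAC samples. DAC replicate 4 stood well above the rest, while sham replicate 3 lay above both other DAC samples. For LMOD1 the log2 fold change was 0.59 (SE 0.26, 95% interval -0.014 to 1.19, limma adjusted P = 0.592), nearly that of CNN1, but LMOD1 was not a DEG. It was, under each of the 3 other scalings (median 0.61, quantile 0.61, mitochondrially encoded genes left out 0.62), an upregulated DEG at an unadjusted P under 0.05. Without DAC replicate 4 the log2 fold change of LMOD1 was 0.33. SHISA4, a gene on the opposite strand that shares 4745 bases with LMOD1, was between 0.897 and 1.05 FPKM in the sham group and between 1.45 and 1.79 FPKM in the DAC group. SHISA4 was itself an upregulated DEG (log2 fold change 0.41). The sources used here do not say whether fragments were counted by strand, and the part of SHISA4 reads in the value of LMOD1 was not tested.

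MYLK (ENSSSCG00000011867, chromosome 13 from 136508808 to 136809674) was the lowest of the set, at 3.71, 4.34 and 3.32 FPKM in the sham samples and 4.79, 4.01 and 4.97 FPKM in the DAC samples. Only sham replicate 2 reached into the range of the DAC group. MYLK had a log2 fold change of 0.22 (SE 0.13, 95% interval -0.076 to 0.53, limma adjusted P = 0.648).

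SMTN (ENSSSCG00000010017, chromosome 14 from 47879317 to 47902699) encodes smoothelin, an actin-binding protein of contractile smooth muscle cells that is lost when such cells leave the contractile state in culture. It was the most abundant of the 10 genes, at 73.0, 79.5 and 74.1 FPKM in the sham samples and 67.1, 56.5 and 65.2 FPKM in the DAC samples. The sham samples lay within a narrow range, DAC replicate 5 was the lowest, and the groups did not overlap. Over the 6 samples SMTN averaged 69.2 FPKM, against 29.1 FPKM for ACTA2 and 11.3 FPKM for MYH11. Which cell types of the ventricle the SMTN fragments came from was not tested. Sham minipigs averaged 75.5 ± 3.48 FPKM and DAC minipigs 62.9 ± 5.65 FPKM (SD, n = 3 each). SMTN was a downregulated DEG with a log2 fold change of -0.26 (SE 0.11, 95% interval -0.52 to -0.0081, limma adjusted P = 0.584). Its exact two-sided permutation P was 0.1, the smallest that these groups allow. The difference stayed negative in all 13 alternatives, but SMTN was no longer a DEG under median scaling (-0.24), quantile scaling (-0.21) or scaling without the mitochondrially encoded genes (-0.22). It was also no longer a DEG when any of the sham replicates, DAC replicate 5 or DAC replicate 6 was left out, with log2 fold changes between -0.29 and -0.19.

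**Figure D2:**
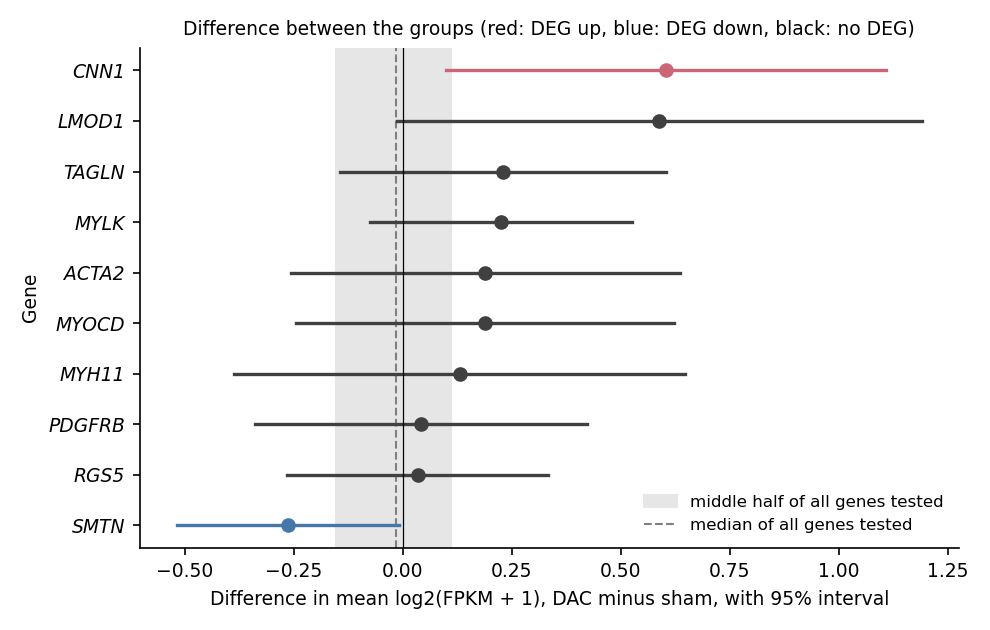
Difference in mean log2(FPKM + 1) between the DAC and the sham group for each marker (points) with its 95% interval from limma (lines); the gray band is the interquartile range of all 11029 genes tested and the dashed line is their median. The interval lies above 0 for CNN1 and below 0 for SMTN, and it includes 0 for the other 8 genes.

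MYOCD (ENSSSCG00000031988, chromosome 12 from 56931317 to 57029538) was at 35.4, 33.3 and 27.6 FPKM in the sham samples and at 35.6, 46.5 and 29.3 FPKM in the DAC samples. DAC replicate 5 was the highest, and the other DAC samples lay within or just above the range of the sham group. The log2 fold change was 0.19 (95% interval -0.25 to 0.62, limma adjusted P = 0.785), and it was 0.017 without DAC replicate 5. On the FPKM scale, MYOCD was above MYH11 in each of the 6 samples, by 2.21 to 4.41 times.

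The pericyte markers differed by less than the spread between minipigs. PDGFRB (ENSSSCG00000022741, chromosome 2 from 151155754 to 151192647, minus strand), the receptor through which platelet-derived growth factor B recruits pericytes to vessels, was at 21.3, 16.7 and 15.4 FPKM in the sham samples and 21.5, 15.8 and 17.7 FPKM in the DAC samples. The highest values, in sham replicate 1 and DAC replicate 4, were almost equal. The log2 fold change of PDGFRB was 0.042 (SE 0.16, limma adjusted P = 0.955), with a 95% interval from a 0.790-fold to a 1.34-fold level on the scale of FPKM + 1. RGS5 (ENSSSCG00000037821, chromosome 4 from 87286953 to 87344251), a brake on G-protein signaling in the vessel wall, was at 48.3, 49.6 and 55.1 FPKM in the sham samples and 56.3, 44.8 and 56.3 FPKM in the DAC samples. Both the highest and the lowest value of RGS5 were in the DAC group. Its log2 fold change was 0.034 (SE 0.13, limma adjusted P = 0.953), with a 95% interval from a 0.832-fold to a 1.26-fold level.

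Ordered by mean FPKM over the 6 samples, the genes were SMTN at 69.2, RGS5 at 51.7, TAGLN at 42.3, MYOCD at 34.6, ACTA2 at 29.1, PDGFRB at 18.1, MYH11 at 11.3, CNN1 at 5.80, LMOD1 at 4.79 and MYLK at 4.19 FPKM. The range of SMTN did not overlap that of RGS5, whereas the ranges of all other neighbours in this order overlapped. Within each minipig the order was steadier: RGS5 was above TAGLN, PDGFRB was above MYH11, and MYH11 was above CNN1 in 6 of 6 samples. LMOD1 was above MYLK in 3 of the 6 samples. The highest sample was 2.94 times the lowest for LMOD1 and 2.66 times for CNN1, the widest ranges in the set, and 1.26 times for RGS5, the narrowest.

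The minipigs did not differ from each other in the same way across the set. Sham replicate 1 had the lowest value of all 6 samples in 5 genes, ACTA2, TAGLN, MYH11, CNN1 and LMOD1. It was also the lowest sham sample in SMTN and RGS5, but the highest sham sample in PDGFRB, at 21.3 FPKM, and in MYOCD, at 35.4 FPKM. In the summed FPKM of the 14 endothelial markers it was the lowest sham sample, at 347, with 459 and 470 in the other sham samples. In the DAC group that sum was between 345 and 425, and none of these markers was listed at 0. The part of vessel content in the low values of sham replicate 1 was not tested. DAC replicate 4 was the highest sample in 5 genes, TAGLN, MYH11, LMOD1, PDGFRB and RGS5, and lay above the sham mean in 9 of 10. DAC replicate 5 was the highest in ACTA2, CNN1 and MYOCD and the lowest in SMTN and RGS5. DAC replicate 6 lay above the sham mean in 5 of 10 genes. Summed over the 8 smooth muscle genes, the level was between 178 and 211 FPKM in the sham group and between 190 and 218 FPKM in the DAC group. SMTN, the most abundant of these genes and the only one with a lower DAC mean, weighed most in this sum.

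**Figure D3:**
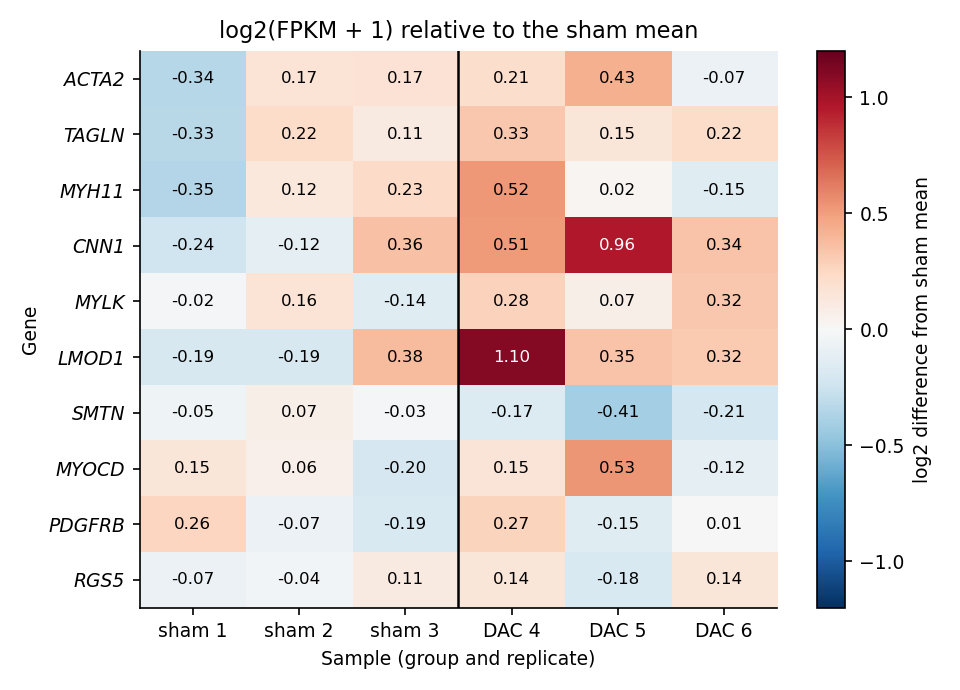
Each marker in each minipig as log2(FPKM + 1) minus the mean of the sham group; red is above and blue below that mean, and the vertical line parts the sham from the DAC samples. Sham replicate 1 is at -0.34 for ACTA2, -0.33 for TAGLN and -0.35 for MYH11, DAC replicate 4 is at 1.10 for LMOD1, DAC replicate 5 is at 0.96 for CNN1, and all DAC samples are negative for SMTN.

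Each marker belongs to a gene family whose other members are often typical of other cells, and 16 of the 22 listed relatives were in the table. TAGLN2, MYH10, MYLK2, MYLK4, LMOD3 and SMTNL1 were not analysed here. TAGLN3, at most 0.913 FPKM, was not tested. Of the 15 relatives tested, none was a DEG by limma in either direction at an unadjusted P under 0.05. With 1 sample left out, the count was at most 1 in each direction. The skeletal actin ACTA1 was between 1518 and 2405 FPKM and the cardiac actin ACTC1 between 716 and 2039 FPKM over the 6 samples. ACTC1 was 23.6 to 80.1 times the level of ACTA2, and its log2 fold change was 0.45 (limma adjusted P = 0.699). The actin genes are similar in their coding sequence. The sources used here do not say how any fragments shared between them were assigned, so the ACTA2 values are uncertain in this respect. ACTC1 was highest in DAC replicate 6, where ACTA2 was the lowest of its group, while ACTA1, like ACTA2, was highest in DAC replicate 5. The part of shared fragments in the ACTA2 values was not tested. The enteric smooth muscle actin ACTG2 was between 0.359 and 1.45 FPKM.

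As with the actins, the cardiac or striated relative far exceeded the smooth muscle gene in the kinase and leiomodin families. The cardiac kinase MYLK3 was between 80.6 and 113 FPKM, 16.8 to 31.3 times the level of MYLK. LMOD2, the leiomodin of striated muscle, was between 386 and 573 FPKM, 62.2 to 194 times the level of LMOD1. The nonmuscle myosin MYH9 was 2.38 to 4.57 times the level of MYH11 and had a log2 fold change of 0.031. Among calponins, CNN3 was between 15.3 and 26.5 FPKM and CNN2 between 1.39 and 2.79 FPKM. In the smoothelin and myocardin families the marker was above its listed relatives. SMTN was 4.78 to 11.0 times SMTNL2. MYOCD, which is also known from cardiomyocytes, was 3.61 to 6.25 times MRTFA, a coactivator of the same family that shuttles with actin polymerization. MRTFA was between 6.98 and 8.12 FPKM and MRTFB between 5.37 and 7.87 FPKM, with log2 fold changes of -0.029 and -0.051.

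**Figure D4:**
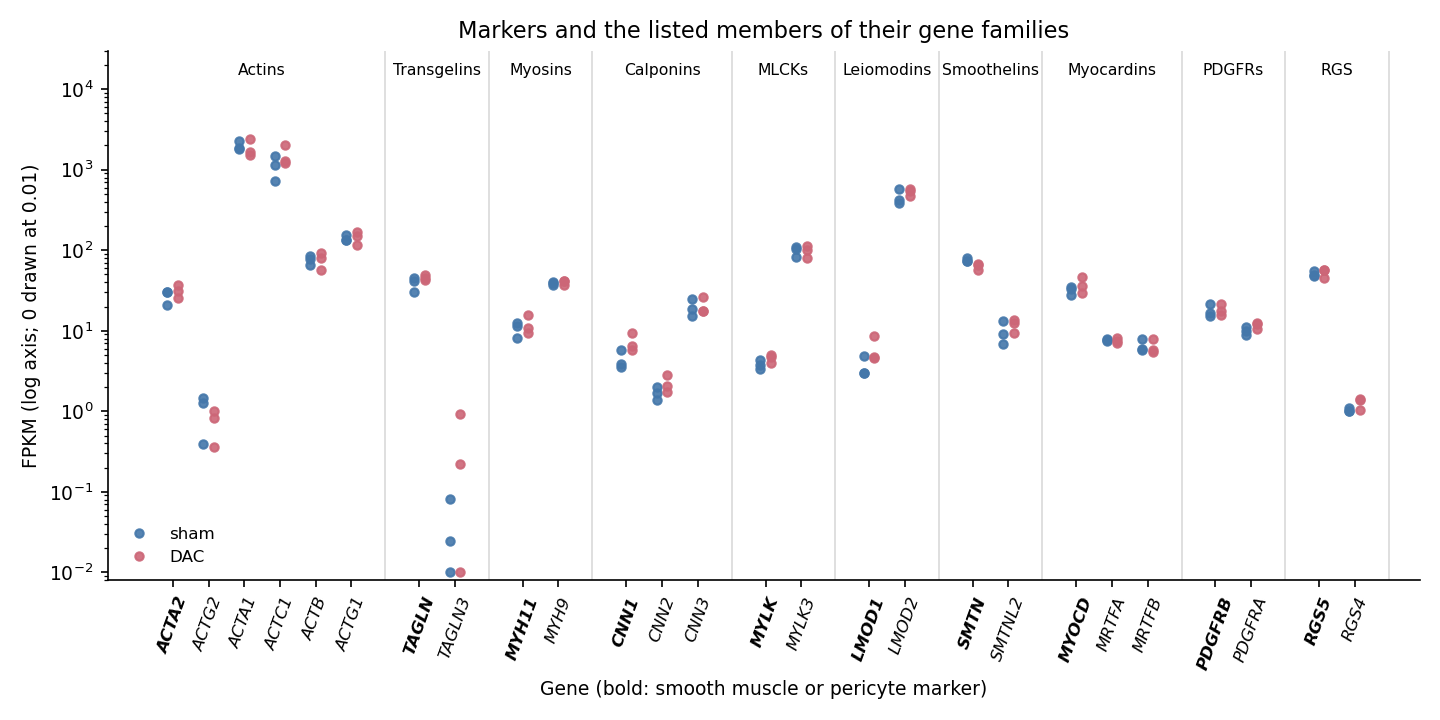
FPKM on a log axis of the markers (bold) and the listed members of their gene families, with 3 sham samples in blue and 3 DAC samples in red for each gene; values of 0 are drawn at 0.01. ACTA1 and ACTC1, MYLK3 and LMOD2 lie at least an order of magnitude above ACTA2, MYLK and LMOD1, while SMTN, MYOCD and RGS5 lie above their relatives.

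The PDGF system around PDGFRB showed no DEG by limma among its 5 other genes at an unadjusted P under 0.05, and 1 was upregulated without DAC replicate 5. PDGFB, the endothelial ligand of PDGFRB, was at 15.7, 17.3 and 18.9 FPKM in the sham samples and 22.2, 13.0 and 20.9 FPKM in the DAC samples. PDGFB thus had both its highest and its lowest value in the DAC group (log2 fold change 0.079). PDGFRA, the receptor typical of fibroblasts, was between 8.74 and 11.1 FPKM in the sham group and between 10.5 and 12.6 FPKM in the DAC group (log2 fold change 0.24, limma adjusted P = 0.640). PDGFD, another ligand of PDGFRB, had a log2 fold change of 0.27, and PDGFA and PDGFC had -0.17 and 0.087.

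Among 23 tested genes of the wider contractile machinery of smooth muscle, 2 were upregulated and 1 was downregulated, and their median log2 fold change was 0.062, but -0.020 without sham replicate 1 and -0.032 without DAC replicate 6. Of these genes, 1 was upregulated without sham replicate 2 or DAC replicate 4, and 3 without DAC replicate 5. With a filter of at least 5 FPKM, under which both upregulated genes were not tested, none was upregulated. The upregulated genes were GUCY1A1 and PDE5A. GUCY1A1, a subunit of the soluble guanylate cyclase that makes cyclic GMP, was at 3.05, 3.86 and 2.77 FPKM in the sham samples and 5.79, 4.68 and 4.51 FPKM in the DAC samples. All DAC samples lay above all sham samples, with a log2 fold change of 0.51 (SE 0.14, limma adjusted P = 0.50). PDE5A, which breaks down cyclic GMP, was between 1.55 and 2.10 FPKM in the sham group and between 2.50 and 2.81 FPKM in the DAC group (log2 fold change 0.33). The downregulated gene was PPP1R12B, the targeting subunit of myosin phosphatase that is abundant in striated muscle, which averaged 138 ± 19.4 FPKM in sham and 110 ± 1.87 FPKM in DAC minipigs (SD, n = 3 each). Like SMTN, PPP1R12B was no longer a DEG under any of the 3 other scalings, and none of the 23 was downregulated when any sample other than sham replicate 2 was left out. Of 23 tested regulators of smooth muscle genes, among them SRF and the Notch and TGF-β genes of the vessel wall, none was a DEG by limma in either direction at an unadjusted P under 0.05, and the median log2 fold change was 0.028. Without DAC replicate 5, 4 of these regulators were upregulated. Without sham replicate 2, 1 was upregulated and 1 was downregulated, and 1 was downregulated without DAC replicate 6 or with a variance estimated for each gene alone. The regulators' median lay between 0.013 without sham replicate 1 and 0.090 without DAC replicate 5.

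Of 16 further pericyte markers tested, 1 was upregulated and none was downregulated, with a median log2 fold change of 0.10. Leaving out DAC replicate 6 gave a median of 0.025, leaving out sham replicate 3 gave 0.054, and leaving out DAC replicate 5 gave 0.17. The upregulated count was 2 without sham replicate 2 or DAC replicate 5, 1 when any other sample was left out, and 0 with a filter of at least 5 FPKM. The upregulated gene was TBX18, a transcription factor of mural cells and of the epicardium, at 1.78, 1.59 and 1.40 FPKM in the sham samples and 3.38, 2.81 and 2.03 FPKM in the DAC samples. The groups did not overlap. For TBX18 the log2 fold change was 0.52 (SE 0.16, limma adjusted P = 0.511).

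Matrix and myofibroblast genes outside the set gave other counts than the contractile markers. Of 21 tested, 8 were upregulated and none was downregulated, and the median log2 fold change was 0.27, from 0.15 without DAC replicate 6 to 0.49 without DAC replicate 5. With a filter of at least 5 FPKM, 5 were upregulated, and 1 of the list was downregulated when sham replicate 1 or DAC replicate 4 was left out. The DEGs of smallest P were COL1A2 and COL1A1, the chains of collagen I, and VIM, an intermediate filament of mesenchymal cells. COL1A2 was between 68.3 and 81.3 FPKM in the sham group and between 109 and 113 FPKM in the DAC group (log2 fold change 0.59, SE 0.11, limma adjusted P = 0.337). VIM was between 67.3 and 77.4 FPKM in the sham group and between 108 and 146 FPKM in the DAC group (log2 fold change 0.72). The difference between this list and the contractile markers was not tested. The ACTA2 values of the DAC minipigs overlapped those of the sham group. In 8 of the 21 matrix and myofibroblast genes tested, all DAC samples lay above all sham samples, against 6.01% of all genes, and the others overlapped like ACTA2. COL1A1, COL1A2 and VIM were among these 8, but they were picked for their small P. The list itself was chosen with earlier results of these data known. It holds COL1A1, COL1A2, COL3A1 and FN1, which the study had named from the same RNA sequencing, so its share carries little weight.

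Other cell types of the ventricle were read beside the markers. Of 14 endothelial markers, 2 were upregulated and 3 were downregulated, with a median log2 fold change of -0.20, from -0.37 without sham replicate 1 to -0.098 without DAC replicate 5. Without sham replicate 1, 5 were downregulated. None was upregulated without sham replicate 1, sham replicate 3 or DAC replicate 6, and 1 was without DAC replicate 4. The endothelial DEGs of smallest P in each direction were CLDN5, a tight junction gene, with a log2 fold change of -1.22, and KDR, the main receptor for VEGF, with 0.60. PECAM1 and CDH5, which define the endothelium, had log2 fold changes of -0.26 and -0.22 (limma adjusted P = 0.791 and 0.808). Of 14 fibroblast markers, LUM alone was upregulated (log2 fold change 0.74), 2 were under each of the 3 other scalings, and 3 were when sham replicate 3 or DAC replicate 5 was left out. Leaving out DAC replicate 6 made 1 fibroblast marker a downregulated DEG. Of 12 cardiomyocyte markers 1 was downregulated, and of 11 leukocyte markers 1 was downregulated. No cardiomyocyte marker was a DEG without sham replicate 1 or 3, while 3 leukocyte markers were downregulated without DAC replicate 6 and 2 were upregulated without DAC replicate 4. The summed FPKM of the leukocyte markers was between 116 and 151 in the sham group and between 109 and 173 in the DAC group. How much of any difference in the 10 genes comes with these cell types was not tested.

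**Figure D5:**
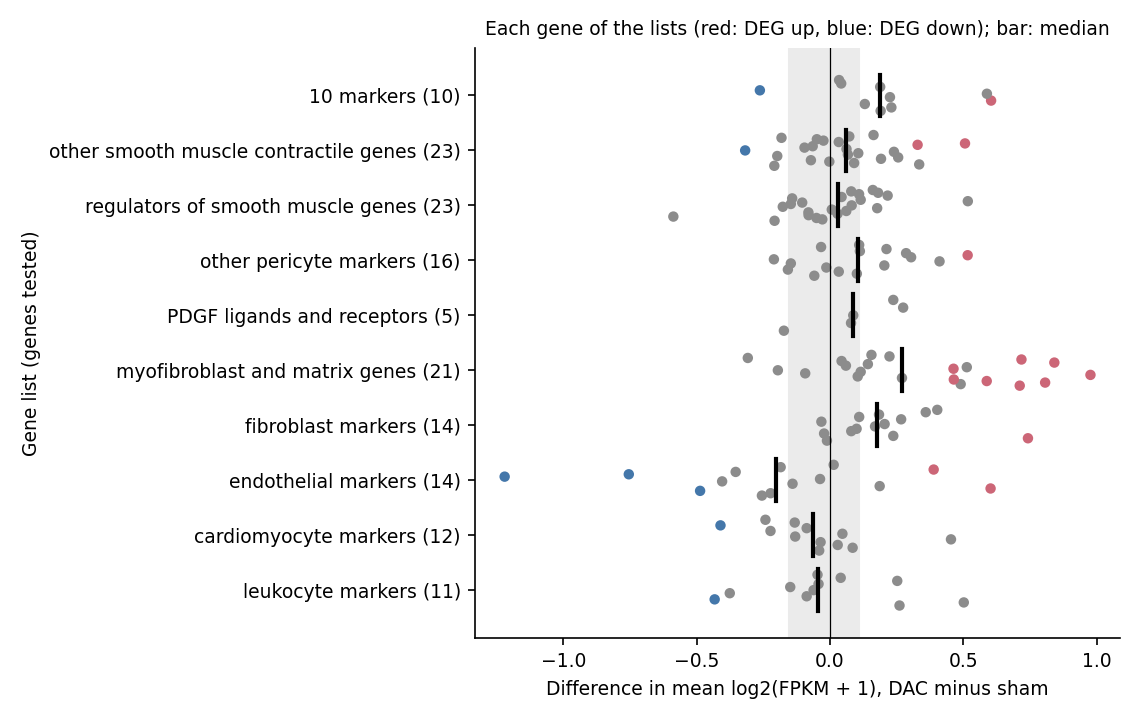
Difference in mean log2(FPKM + 1) between the DAC and the sham group for each tested gene of 10 lists, with upregulated DEGs in red, downregulated DEGs in blue and the median of each list as a bar; the gray band is the interquartile range of all genes tested. The median is 0.19 for the 10 markers, 0.062 for other contractile genes, 0.27 for matrix and myofibroblast genes and -0.20 for endothelial markers.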

How the data were processed

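Total RNA of ventricular tissue from 3 sham and 3 DAC minipigs was made into NEBNext Ultra libraries and sequenced as paired ends. The authors deposited 1 table of FPKM, with a column for each minipig. The submitters' processing notes name HISAT2 and the build susScr11. The program that computed FPKM, the annotation version and the treatment of shared or antisense reads are not given in the sources used here. No listed gene has a maximum under 0.50 FPKM. The depth is unknown, so precision is given by the spread between minipigs alone.

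Genes that reached 1 FPKM in 3 or more samples were tested on log2(FPKM + 1) with limma 3.58.1 in R 4.3.3 (linear model, moderated test, variance trend, two-sided), with Benjamini-Hochberg adjustment over the 11029 genes tested, and with exact two-sided permutation tests for the 10 markers. DEGs had an unadjusted P under 0.05, the threshold of the study. Fold changes on this scale understate the change of low genes. The fit was tested on simulated data. Figures used matplotlib 3.10.9.

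The markers and the companion lists (relatives of the markers, contractile genes, regulators, pericyte, PDGF, matrix, fibroblast, endothelial, cardiomyocyte and leukocyte genes) were chosen with earlier results of these data known, and the lists are described by counts and medians only. All markers, the relatives and PDGF genes, defining cell type markers and up to 3 DEGs per direction of each other list could be named, and genes overlapping a marker were added after their values were seen. Symbols are those of the table, with 520 filled in from a table of gene identifiers. The alternatives were no filter, at least 5 FPKM, median scaling, quantile normalization, rescaling without the mitochondrially encoded genes, a pseudocount of 0.1, an own variance for each gene, and each sample left out in turn.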

Additional observations from a re-analysis of the deposited data

How the results depend on the processing

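The counts of DEGs among the 10 markers depended on the scaling. Upregulated markers numbered 2 (CNN1 and LMOD1) and downregulated markers 0 under median scaling, quantile scaling and scaling without the mitochondrially encoded genes, against 1 and 1 in the values as reported. With a separate variance for each gene, 0 were upregulated and 1 was downregulated. With 1 sample left out in turn, the upregulated markers numbered from 0 to 2 and the downregulated markers from 0 to 1. With no filter and with a pseudocount of 0.1 the counts were as reported, and with at least 5 FPKM, which leaves out MYLK and LMOD1, they were also 1 and 1. The median log2 fold change of the markers stayed between 0.12 and 0.25 over the 13 alternatives.

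With 1 sample left out in turn, the log2 fold change changed sign for MYH11 (from -0.063 to 0.27), PDGFRB (from -0.072 to 0.17) and RGS5 (from -0.020 to 0.14). The other 7 markers kept their sign in every alternative in which they were tested. CNN1 was a DEG in 9 of 13 alternatives, SMTN in 5 of 13 and LMOD1 in 6 of 12. The causes were not tested. Over all genes, a filter of at least 5 FPKM, which tests fewer genes, left 165 upregulated DEGs in place of 358, and without sham replicate 1 there were 241 upregulated and 359 downregulated. With 3 minipigs per group and standard errors of 0.11 to 0.26 on the log2 scale, small changes of these genes were not detectable. A label that pairs sham with DAC minipigs is not given.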

Other observations

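Ratios of FPKM within a sample are not changed by a factor common to all its genes, though quantile normalization does change them. They were formed after the values were seen, so no test was made. SMTN was 2.44 to 3.48 times ACTA2 in the sham samples and 1.55 to 2.56 times in the DAC samples, and the groups overlapped in DAC replicate 6. CNN1 was 0.336 to 0.463 times MYH11 in the sham samples and 0.423 to 0.872 times in the DAC samples, highest in DAC replicate 5. RGS5 was 47.6 to 49.9 times RGS4 in the sham samples and 40.1 to 42.7 times in the DAC samples, without overlap, with RGS4 at only 1.01 to 1.40 FPKM. In every other ratio formed the groups overlapped, so this one was picked from several and carries little weight.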
